A study of Bos taurus with 14 samples.

Results

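The genes described here are the interleukins, chemokines and TNF superfamily ligands on a bovine expression array, with the colony-stimulating factors, interferon gamma, TGF-beta and the receptors that bear the same family names. They were chosen by name, from the gene names and bracketed symbols that the array's own annotation gives its probes. This gave 68 genes with 1 probe each, out of 15011 distinct probe sequences that are not controls. They comprise 43 ligands, 24 receptors and 1 receptor antagonist: 10 CC and 5 CXC chemokines, 9 chemokine receptors, 5 members of the IL1 family, 8 of the IL6, IL10 and IL12 families, 9 of the common gamma chain family, 3 of the IL16 and IL17 families, 5 colony-stimulating factors, 6 ligands and 7 receptors of the TNF superfamily, and TGFB1.

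Cytokines are secreted or membrane-bound proteins through which immune and tissue cells signal to each other. Chemokines draw leukocytes along a gradient by way of G protein-coupled receptors, most interleukin receptors act through JAK kinases and STAT factors, the IL1 family acts through the adaptor MYD88, and TNF receptors switch on NF-kappaB or cell death. Neutrophils follow CXCL8, are themselves a source of IL1B, CXCL8 and the antagonist IL1RN, and are released from bone marrow when signalling through CXCR4 wanes, whereas hepatocytes answer IL1 and IL6 with acute phase proteins.

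The arrays were hybridised with RNA of Holstein cattle, heifers or steers, that were given β-cryptoxanthin, a carotenoid that animals can convert to vitamin A, by mouth on day 0 at 0.2 mg per kg body weight. The 4 groups were peripheral blood neutrophils on day 7 (4 animals), neutrophils on day 0 (the same 4 animals, numbered 25, 26, 32 and 34), liver on day 7 (3 animals) and liver on day 0 (the same 3 animals, numbered 58, 61 and 66). Every group comes from animals that were given the carotenoid, and the day 0 samples are those from before supplementation. Untreated animals were not analysed here, and a difference between days therefore cannot be told apart from other changes over the week. A level is given throughout as a percentage of the array's 75th percentile of signal, in the order of the animal numbers just given, and is compared only with the same probe on other arrays. The labels do not say how pure the neutrophils were or how the liver was sampled.

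The labelled sources fitted most of their defining markers. All 9 neutrophil markers on the array (of 16 listed) were above background on every neutrophil array, with summed levels of 62580% to 134200% on day 7 and 77530% to 94740% on day 0, against 431% to 1090.0% in liver on day 0. Of the 9 neutrophil markers, 8 were called higher in neutrophils than in liver on day 0. The other, LTF, was called lower (limma, log2 difference -2.10 ± 0.445, adjusted p = 0.00227). All 15 hepatocyte markers on the array (of 19 listed) were above background on every liver array, and albumin was above background on none of the neutrophil arrays. On day 0, 5 of these 15 were above background on every neutrophil array. The 15 summed to 236% to 401% there, against 87590% to 106400% in liver. The 4 groups differed in other ways too. Liver and neutrophils lay on separate slides, and on each slide day 0 and day 7 lay in separate rows of arrays, so tissue and slide, and day and place on the slide, cannot be told apart. The day 7 array of animal 34 was the dimmest, with 57.1% of probes above background, against 62.7% to 76.7% on the other 13, and its correlation with the other neutrophil arrays was 0.924 to 0.945 (log2 values over all probes). In liver on day 7, markers of skeletal muscle summed to 458% to 1912%, against 4.54% to 15.8% on day 0.

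In neutrophils most receptors and fewer of the ligands gave a signal above background. The members above background on every array of a group numbered 33 of 68 in neutrophils on day 7 and 40 on day 0, and 28 in liver on day 7 and 38 on day 0, which is 48.5%, 58.8%, 41.2% and 55.9% of them, beside 54.2%, 62.4%, 62.0% and 72.4% of all probes in the same groups. In neutrophils on day 0 these were 19 of the 24 receptors and 20 of the 43 ligands, and in liver on day 0 they were 13 receptors and 24 ligands. Members above background on all 14 arrays numbered 20, among them IL1A, IL1B, IL1RN, IL18, IL16, CCL3, CCL5, CXCL8, IL10, IL4R, TNFRSF1A and TGFB1. On none of the 14 arrays was a signal above background found for 14 members: the T cell cytokines IL4, IL13, IL17A and IL21, the haematopoietic factors IL3, IL5, CSF2 and CSF3, the stromal factor IL7, the inflammatory IL6, the IL12 subunit IL12A and its receptor chain IL12RB2, the mucosal chemokine CCL20 and the gut-homing receptor CCR9. The map of levels by array shows these as rows of crosses. Interferon gamma passed on 1 array, and IL2, the T cell growth factor, on 1 as well: its level in animal 25 on day 0 was 11.6%, against 0.767% or less on every other neutrophil array of that day.

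**Figure D1:**
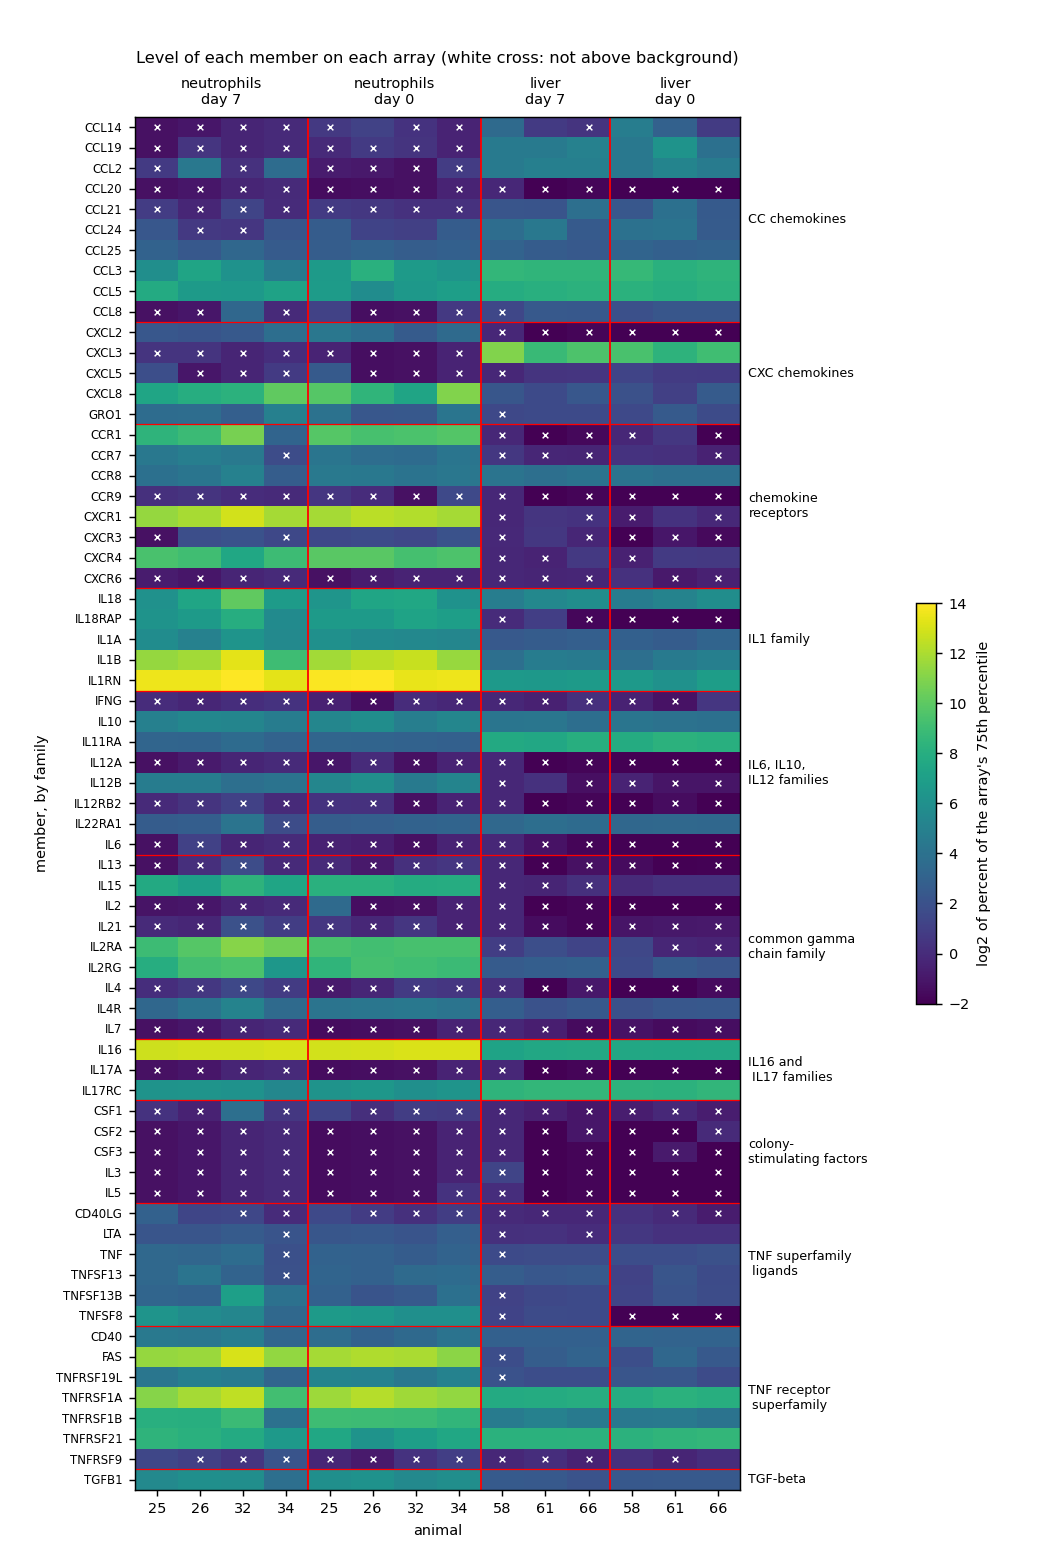
Level of 67 of the 68 members (rows, grouped by family) on each of the 14 arrays (columns, by group and animal number), as log2 of the percentage of the array's 75th percentile; a white cross marks a spot not above background. Colours are to be compared along a row: 14 rows are crossed on every array, and the CXCL3 row is bright on the 6 liver arrays and crossed on the 8 neutrophil arrays.

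Neutrophils and liver differed in most members on day 0. Of the 48 members tested on day 0, 31 were higher and 14 lower in neutrophils than in liver by limma, with an adjusted p under 0.05 over all probes, and CD40, CCL25 and CXCL5 did not pass. The background is as wide: 83.1% of the 11494 probes tested passed, 43.5% higher and 39.7% lower, so passing is not by itself particular to these genes. The median log2 difference was 1.81 over the members tested and 0.12 over all probes tested. Of the 48, 10 entered the test through the neutrophil arrays alone and 8 through the liver arrays alone, and such members had to differ. Among the 30 above background on every array of both groups, 21 were higher and 7 lower in neutrophils, beside 82.4% called, 49.8% higher and 32.6% lower, of the 8744 probes that met the same condition. The median log2 difference was 1.61 over these 30 members and 0.501 over these 8744 probes. In bulk RNA a lower level from fewer cells of a type and one from less RNA per cell cannot be told apart.

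**Figure D2:**
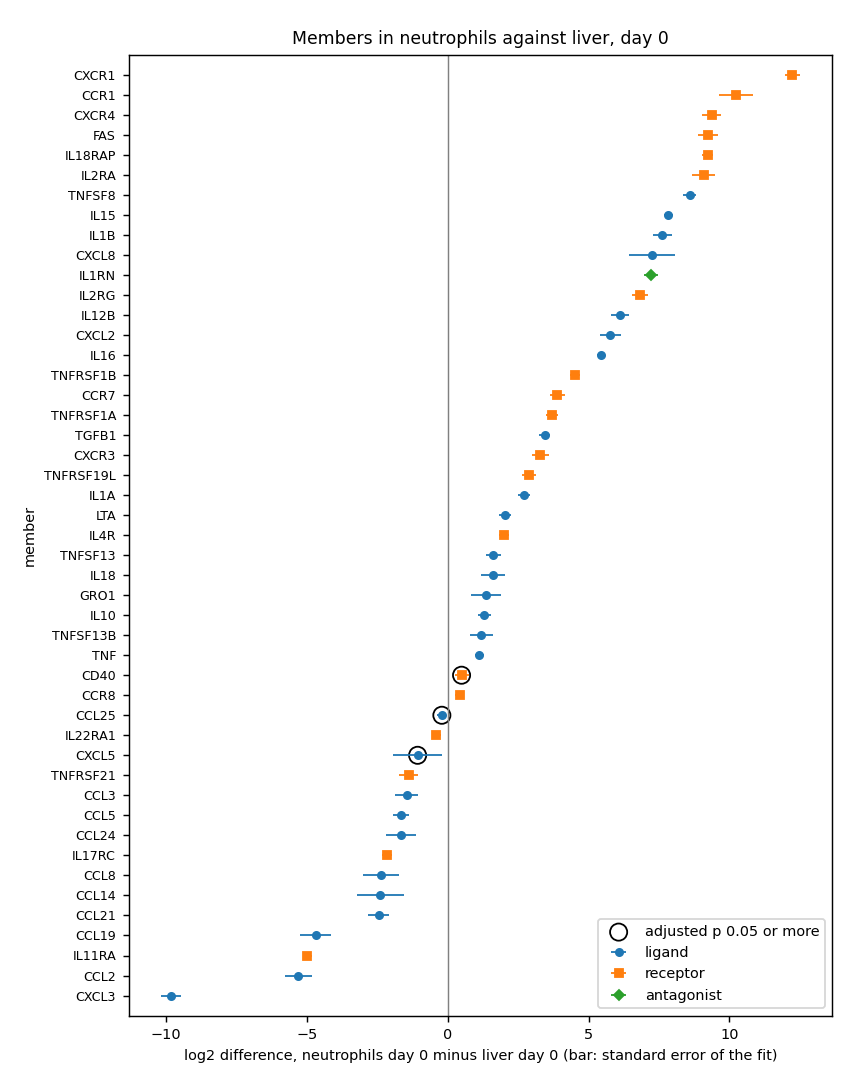
Log2 difference between neutrophils and liver on day 0 for 47 of the 48 members tested, with the standard error of the fit (4 against 3 animals) and the role of each member by symbol; circled members did not pass the test. Receptors fill the upper end, led by CXCR1, CCR1 and CXCR4, while CXCL3, CCL2, IL11RA and CCL19 lie at the lower end.

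Chemokine receptors, which let a leukocyte read a gradient, were higher in neutrophils in 6 of the 7 tested. Of these 6, 5 passed the filter on dim probes through the neutrophil arrays alone, which fixes their direction, and CCR8 was above background on every array of both tissues. The probe that the annotation calls IL8RB, and whose accession RefSeq now gives to CXCR1, a receptor for CXCL8, was at 3729, 5132, 4597 and 3663% in neutrophils, against 0.582, 1.28 and 0.908% in liver on day 0. The groups lie far apart, and the liver signal passed background in 1 of 3 animals. The log2 difference was 12.24 ± 0.28 (SE, adjusted p = 1.11e-08); since CXCR1 and CXCR2 are near-identical genes, which of them gave this signal is uncertain. The first 30 of this probe's 60 bases, 5′ to 3′, are ttgctatgttctgtggtataaataaatgct. CCR1, a receptor for CCL3 and CCL5, was at 892, 647, 707 and 849% in neutrophils, against 0.872, 1.49 and 0.202% in liver, with 1 of 3 liver arrays above background. CXCR4, the receptor that holds neutrophils in bone marrow, was at 957, 959.7, 612 and 726% in neutrophils, against 0.692, 1.63 and 1.54% in liver, with 2 of 3 liver arrays above background. Neither gene's groups overlap, and the log2 differences were 10.23 ± 0.59 and 9.38 ± 0.33 (adjusted p = 8.44e-07 and 6.14e-08). CCR7, which guides cells to lymph nodes, was 3.89 ± 0.27 higher in neutrophils on the log2 scale, and CXCR3, a receptor best known from T cells, was above background on none of the day 0 liver arrays and at least 3.13-fold higher in neutrophils. CCR8, a receptor of T cells, passed with 0.42 ± 0.16 (adjusted p = 0.0374) and did not without animal 61, 66, 25, 26 or 34.

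The chemokine ligands were tested by subfamily. None of the 9 CC chemokines tested was higher in neutrophils and 8 were lower. Of these 8, 5 passed the filter through the liver arrays alone and so had to be lower, while CCL3, CCL5 and CCL24 were above background on every array of both tissues. CCL2, which attracts monocytes, was at 0.583, 0.527, 0.411 and 1.77% in neutrophils, against 21.1, 37.6 and 25.6% in liver; CCL19, a ligand of CCR7, at 0.917, 1.66, 1.31 and 0.767% in neutrophils, against 21.6, 74.9 and 14.9% in liver. Neither was above background on any day 0 neutrophil array, every liver value lay above them, and the neutrophil level was at least 12.2-fold lower for CCL2 and at least 12.9-fold lower for CCL19. CCL21, the other CCR7 ligand measured, was at least 3.40-fold lower; each such bound sets the mean of the brighter group against the lowest signal called above background on the dim arrays, or the probe's own where that is higher. CCL3 and CCL5, which attract monocytes and T cells, were measured throughout: CCL3 was at 105, 285, 105 and 79.1% in neutrophils, against 419.5, 288 and 341% in liver, and CCL5 at 109, 55.3, 91.1 and 124% in neutrophils, against 296, 250.2 and 315% in liver. For both, every liver value lay above every neutrophil value, though for CCL3 only just, at 288% against 285%. The log2 differences were -1.46 ± 0.42 and -1.65 ± 0.28 (limma, adjusted p = 0.0106 and 0.00062). CCL8, a monocyte attractant, CCL24, which attracts eosinophils, and CCL14 had log2 differences of -2.37 ± 0.64, -1.67 ± 0.54 and -2.41 ± 0.83. The call for CCL24 ended without animal 58, 61 or 26, that for CCL14 without animal 58, 61, 32 or 34, and both under normexp with quantile normalization.

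Among CXC chemokines, the ligands that attract neutrophils, 1 was lower and 3 higher in neutrophils, and CXCL5 did not pass. CXCL3 passed the filter on dim probes through the liver arrays alone and CXCL2 through the neutrophil arrays alone, which fixes their directions. CXCL3 was at 0.743, 0.377, 0.411 and 0.767% in neutrophils, against 689, 327 and 557% in liver, and no neutrophil array of day 0 or day 7 was above background. The neutrophil level was at least 223-fold lower (adjusted p = 6.8e-08). CXCL2 went the other way, at 20.6, 14, 6.02 and 11.7% in neutrophils, against 0.251, 0.210 and 0.202% in liver, where no day 0 liver array was above background, and its neutrophil level was at least 12.1-fold higher. CXCL8, the main neutrophil attractant, was at 878, 349.9, 160.1 and 2045% in neutrophils, against 3.96, 2.06 and 5.99% in liver; the groups do not overlap, and the spread between animals was wide in neutrophils (7.27 ± 0.81, adjusted p = 4.73e-05). GRO1, which the array's annotation calls CXCL1, was at 16.2, 5.16, 5.30 and 19% in neutrophils, against 2.86, 5.80 and 3.14% in liver, and these ranges overlap. Its log2 difference of 1.36 ± 0.54 passed with adjusted p = 0.0424 and no longer did when animal 58, 66, 25 or 34 was left out. CXCL5, another neutrophil attractant, was at 5.68, 0.377, 0.411 and 0.767% in neutrophils, against 2.44, 1.72 and 1.65% in liver, with 1 of 4 neutrophil arrays above background and a log2 difference of -1.07 ± 0.87 (adjusted p = 0.278).

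The probes of CXCL2, CXCL3 and GRO1 come from closely related genes, so their sequences are shown, 30 of 60 bases each, 5′ to 3′ as the array files give them, with the positions at which they vary in capitals.
CXCL2: ttTcttgtaaggcaCaatgccttgtttCAt
CXCL3: ttGcttgtaaggcaTaatgccttgtttAAt
GRO1: ttCcttgtaaggcaTaatgccttgtttAGt
In this window 26 of 30 positions are the same in all 3 probes; CXCL3 differs from GRO1 at 2 positions and from CXCL2 at 3. CXCL3 and GRO1 share a run of 25 identical bases, and among all 2278 pairs of member probes no other pair than these 3 shared a run of 12 or more. Signal from one of these genes on another's probe therefore was possible by sequence and was not tested.

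The IL1 family, which starts fever and acute inflammation, was higher in neutrophils for all 5 members chosen by name. IL1R2 and IL33 are on the array too but were not matched by the choice of names. IL18RAP passed the filter on dim probes through the neutrophil arrays alone, which fixes its direction. IL1B was at 3523, 5155, 6511 and 2947% in neutrophils, against 14.6, 24.7 and 29.3% in liver. IL1RN, the antagonist that blocks the IL1 receptor, was at 15222, 18251, 11153 and 12319.7% in neutrophils, against 101, 68.6 and 119% in liver. Both genes' groups are far apart, with log2 differences of 7.62 ± 0.34 and 7.22 ± 0.25 (adjusted p = 1.97e-07 and 5.75e-08). IL18RAP, the accessory chain of the IL18 receptor, was at 104, 106, 157 and 123% in neutrophils, against 0.193, 0.210 and 0.202% in liver, with no day 0 liver array above background and a neutrophil level at least 122-fold higher. Its spot lies in row 2 of the array, where the median difference of all probes within 2 rows was 2.06 on the log2 scale. IL18 itself differed less, at 81.7, 168, 187 and 70.2% in neutrophils, against 26.2, 36.4 and 58.2% in liver (log2 difference 1.60 ± 0.42, adjusted p = 0.0073), and IL1A, the cell-bound relative of IL1B, by 2.70 ± 0.21.

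Of the common gamma chain family, which serves lymphocyte growth, the 2 receptor chains tested besides IL4R were high in neutrophils. IL2RG, the common chain, was at 358, 630.3, 535 and 483% in neutrophils, against 2.98, 5.78 and 4.70% in liver; IL2RA, the high-affinity chain of the IL2 receptor, was at 675, 563, 642 and 664% in neutrophils, against 2.62, 0.821 and 0.748% in liver, with 1 of 3 liver arrays above background. No values overlap, and the log2 differences were 6.83 ± 0.28 and 9.08 ± 0.41 (adjusted p = 1.23e-07 and 2.04e-07). IL2RA passed the filter on dim probes through the neutrophil arrays alone, which fixes its direction. The IL2RG spot lies in row 3, where the median difference of all probes within 2 rows was 1.98, and with a trend along the rows removed its difference was 5.95. IL15, which sustains natural killer cells, was the only ligand of this family tested, at 284, 289, 230.1 and 239.8% in neutrophils, against 0.957, 1.24 and 1.24% in liver (7.84 ± 0.17, adjusted p = 1.03e-08). IL4R, the IL4 receptor chain, differed by 2.0 ± 0.17. Markers of T and NK cells were present in the neutrophil samples, with 12 of 12 on the array above background on day 0 and a sum of 2716% to 5436%, against 147% to 211% in liver; their part in the receptor levels was not tested.

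The IL6, IL10 and IL12 families and the IL16 and IL17 families held members of both kinds. Of those tested, IL12B passed the filter on dim probes through the neutrophil arrays alone, which fixes its direction. IL12B, the subunit shared by IL12 and IL23, was at 40.9, 59.3, 23.2 and 36.7% in neutrophils, against 0.769, 0.460 and 0.466% in liver, and its neutrophil level was at least 38.3-fold higher, no day 0 liver array being above background. IL11RA, the receptor chain for IL11, was at 9.18, 8.91, 8.13 and 7.57% in neutrophils, against 234, 310.2 and 268% in liver; the animals of each tissue lay close together and the log2 difference was -5.0 ± 0.16 (adjusted p = 4.26e-08). IL16, a chemoattractant for CD4+ cells, was at 7606, 8091, 8789 and 8921% in neutrophils, against 194, 188 and 190.0% in liver (5.45 ± 0.14, adjusted p = 1.64e-08). IL17RC, a chain of the IL17 receptor found on epithelial cells, was lower in neutrophils by contrast, with a log2 difference of -2.15 ± 0.18, and IL10, which restrains inflammation, was higher by 1.29 ± 0.23. IL22RA1, the IL22 receptor chain of epithelia, passed with -0.42 ± 0.16 (adjusted p = 0.0376), and that call held without animal 34 but ended when any other single animal was left out.

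In the TNF superfamily all 5 ligands tested and 4 of 6 receptors tested were higher in neutrophils. The ligand TNFSF8 passed the filter on dim probes through the neutrophil arrays alone, which fixes its direction. FAS, the death receptor, was at 3686, 4436, 4081 and 2406% in neutrophils, against 3.67, 10 and 5.65% in liver. TNFRSF1A and TNFRSF1B, the receptors for TNF, were at 3261, 4828, 3349.6 and 2732% and 516, 509, 477 and 368% in neutrophils, against 241, 297 and 266% and 21.5, 22.4 and 17.2% in liver. The groups do not overlap for any of them, with log2 differences of 9.23 ± 0.36, 3.70 ± 0.22 and 4.52 ± 0.19 (adjusted p = 9.59e-08, 8.79e-07 and 1.28e-07). TNFRSF21, a death receptor known from neurons and T cells, was the receptor of the family that was lower, at 187, 74.4, 123 and 186% in neutrophils, against 317, 356 and 383% in liver (-1.39 ± 0.33, adjusted p = 0.004). TNFSF8, the CD30 ligand, which the annotation lists as TNFRSF8 although its accession is that of the ligand, was at 104, 89.7, 62.6 and 61.9% in neutrophils, against 0.193, 0.210 and 0.202% in liver and was at least 78.3-fold higher in neutrophils; its spot too lies in row 3, with the same local median of 1.98. TNF was at 8.20, 7.94, 6.36 and 8.61% in neutrophils, against 3.46, 3.39 and 3.87% in liver; the ranges lie close but do not overlap (log2 difference 1.12 ± 0.17, adjusted p = 0.000264). TNFSF13B, the B cell survival factor BAFF, passed with 1.19 ± 0.41 (adjusted p = 0.0261), and its call ended without animal 58, 66 or 25 and once a trend along the spot rows was removed. LTA, lymphotoxin alpha, was higher by 2.04 ± 0.21, and TNFRSF19L, a name kept from the annotation, by 2.90 ± 0.25. TGFB1, which limits inflammation and drives matrix formation, was higher in neutrophils by 3.44 ± 0.19.

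The day 7 arrays repeated the comparison with the same animals a week later. There 25 members were higher and 10 lower in neutrophils of 41 tested, beside 69% of the 10194 probes tested, 35% higher and 34% lower, and 34 of the 45 day 0 calls were called again. On day 7, 33 members were above background on every neutrophil array and 28 on every liver array. As on day 0, members that entered the test through the arrays of 1 tissue alone had to differ, so their calls are no independent repeat. The log2 differences on day 7 were 7.05 for IL1B, 6.39 for CXCL8 and -4.51 for IL11RA. TNFRSF1B had a difference of 2.52 with adjusted p = 0.0573, and its neutrophil levels on that day included 1 array at 15.8%.

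Between day 7 and day 0 no member passed the test in neutrophils. None of the 40 members tested did (lowest adjusted p = 0.313), and neither did any of the 9449 probes tested (0% called, lowest adjusted p = 0.301); at an unadjusted p under 0.05 there were 1267 probes (13.4%) and 4 members. The 4 were IL12B, CCL3, CXCR4 and TNFSF8, each lower on day 7 in all 4 animals. Over the 40 members the median log2 change was -0.21, and over all probes tested it was -0.07. All 40 were above background on every day 0 array but not all on every day 7 array, which can favour lower values on day 7. Over the 33 members above background on every neutrophil array the median was -0.24, beside -0.02 over the 8046 probes that met the same condition. The animals moved unlike one another, and the spread of the log2 change between animals had a median SD of 0.914 over members and 0.583 over all probes. Members that moved the same way in all 4 animals numbered 10 of 40 (25%), beside 24.5% of all probes.

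IL12B, a subunit of IL12 and IL23, was at 26.6, 26, 14.5 and 17.3% on day 7, against 40.9, 59.3, 23.2 and 36.7% on day 0. Each animal was lower on day 7, and the ranges of the days overlap (log2 change -0.89 ± 0.25, adjusted p = 0.313). CCL3, a chemokine that neutrophils make themselves, was at 60.4, 159.5, 71.8 and 22.7% on day 7, against 105, 285, 105 and 79.1% on day 0. It was lower in each animal, most of all in animal 34, while animal 26 stayed the highest on both days (-1.0 ± 0.29, adjusted p = 0.313). CXCR4 was at 668, 551, 186 and 500.2% on day 7, against 957, 959.7, 612 and 726% on day 0. Animal 32 had the lowest level on both days and the largest step, and the ranges overlap only between animal 25 on day 7 and animal 32 on day 0 (-0.89 ± 0.29, adjusted p = 0.327). TNFSF8 was at 77, 52.4, 40.1 and 10.6% on day 7, against 104, 89.7, 62.6 and 61.9% on day 0. Animal 34 had the lowest level of both days, and the log2 change of -1.10 ± 0.39 (adjusted p = 0.334) was -0.61 without that animal.

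**Figure D3:**
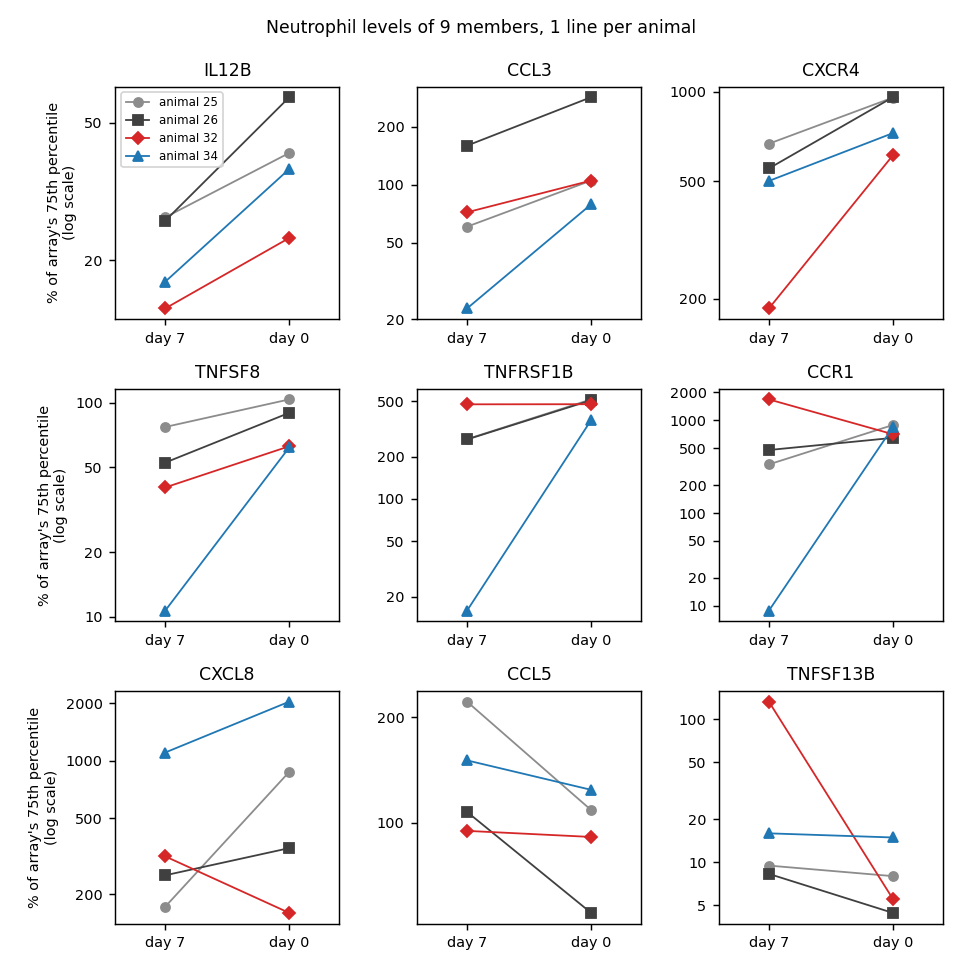
Neutrophil level of 9 members, as a percentage of the array's 75th percentile on a log scale, with day 7 at the left and day 0 at the right of each panel and 1 line per animal; the panels were chosen after the values were seen. IL12B, CCL3, CXCR4 and TNFSF8 are lower on day 7 in all 4 animals, while CCR1 and TNFRSF1B are far lower in animal 34 and TNFSF13B far higher in animal 32.

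The probe of CXCR4 also shows the AU-rich pentamer, ATTTA, that marks many short-lived cytokine messages, and 30 of its 60 bases are shown here with that of IL10, another member that carries the pentamer, in capitals.
CXCR4: ggtttaattgacttATTTAtataaatactt
IL10: ctcccctagagtATTTAttacctctgatac
As printed, the pentamer was present in 5 of 68 member probes (7.35%), those of CXCR4, CXCR6, IL10, IL15 and IL17A, and in 8.28% of all 15011 probes. On the other strand, as TAAAT, it was present in 11 member probes (16.2%) and 11.4% of all. It is thus about as frequent in these windows as in probes at large. The probes cover only 60 bases of each message, and nothing about the rest of the transcript follows.

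Receptors on neutrophils varied most through 2 animals. CCR1 was at 335, 478, 1685 and 8.82% on day 7, against 892, 647, 707 and 849% on day 0. Animal 34 was far below its day 0 level, animal 32 was above all others, and the mean change was -1.80 ± 1.13 (adjusted p = 0.48), or -0.20 without animal 34. TNFRSF1B was at 268, 267, 476 and 15.8% on day 7, against 516, 509, 477 and 368% on day 0, lower on day 7 in all 4 animals but by almost nothing in animal 32 (-1.60 ± 0.69, adjusted p = 0.373; -0.63 without animal 34). TNFRSF1A was at 2216, 3667, 5603 and 581% on day 7, against 3261, 4828, 3349.6 and 2732% on day 0, and IL2RG at 251, 593, 699 and 87.3% on day 7, against 358, 630.3, 535 and 483% on day 0. In both, animal 34 had the lowest and animal 32 the highest level of day 7, and their changes of -0.61 ± 0.46 and -0.67 ± 0.47 were -0.07 and -0.07 without animal 34. CCR7 was at 20.9, 28.9, 22 and 3.29% on day 7, against 18.9, 13.2, 11.9 and 18.3% on day 0, with animal 34 alone below its day 0 range and not above background on day 7. CXCR1 and FAS changed little on average (-0.02 ± 0.29 and 0.08 ± 0.32), and in both animal 32 was the highest on day 7.

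Over the 40 members tested the within-animal median log2 change was -0.378 in animal 25, -0.205 in animal 26, 0.597 in animal 32 and -0.756 in animal 34, beside -0.137, -0.109, 0.0849 and -0.122 over all probes. In animal 34, 16 members were lower by more than 1 on the log2 scale and 1 was higher, whereas in animal 32, 7 were higher and 1, CXCR4, was lower by more than that. Of all probes, 25.6% in animal 34 and 4% in animal 32 were lower by more than 1, and 14.8% and 9.37% were higher. The day 7 arrays of these animals were also the dimmest of the 8, with median signals of 100.2 in animal 32 and 48.2 in animal 34, against 109 to 163 on the others; the part of signal strength in the changes was not tested. The plot of changes by animal sets these values side by side.

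**Figure D4:**
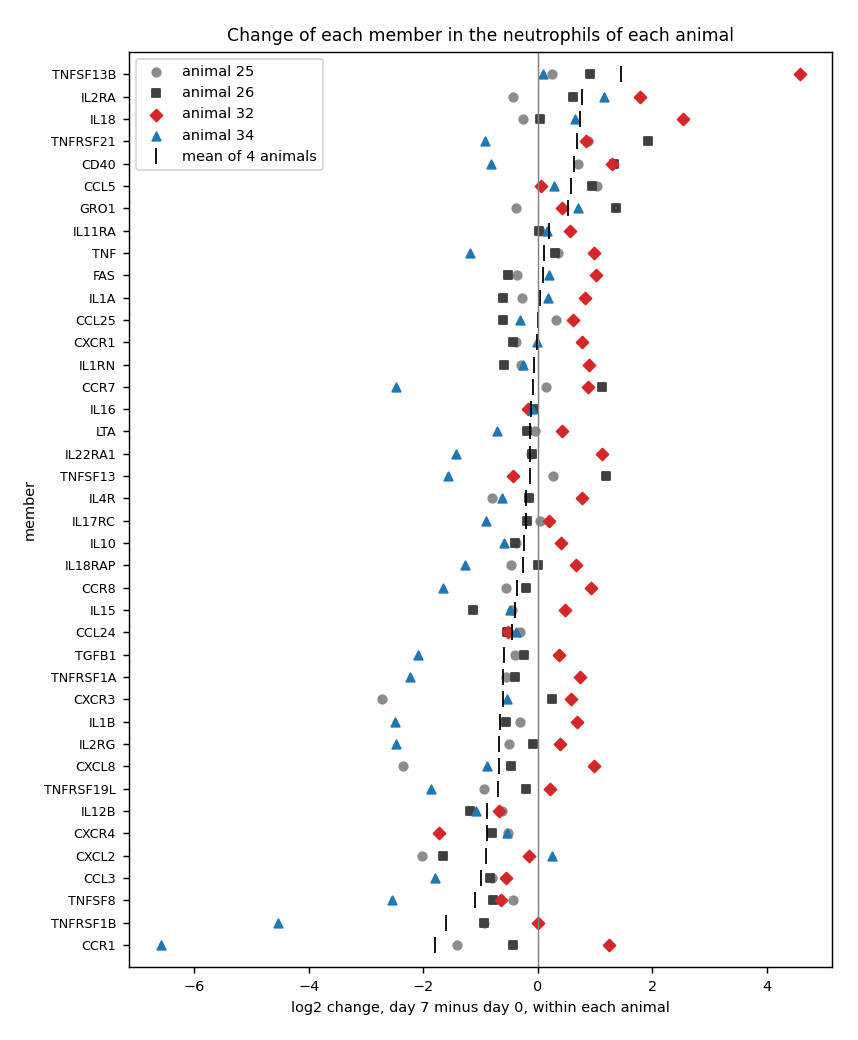
Log2 change (day 7 minus day 0) of the 40 members tested in neutrophils, 1 symbol per animal and a bar at the mean of the 4 animals, sorted by the mean. Animal 34 (blue triangles) lies far left for CCR1, TNFRSF1B and IL1B, and animal 32 (red diamonds) lies right of the other 3 for TNFSF13B, IL18 and IL2RA.

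The inflammatory ligands of neutrophils showed the same spread. CXCL8 was at 172, 252, 317 and 1107% on day 7, against 878, 349.9, 160.1 and 2045% on day 0; it was lower in animals 25, 26 and 34 and higher in animal 32, and animal 34 had the highest level on both days (-0.68 ± 0.50, adjusted p = 0.54). IL1B was at 2851, 3522, 10528 and 522% on day 7, against 3523, 5155, 6511 and 2947% on day 0, with a change of -0.66 ± 0.49 that was -0.05 without animal 34. IL1RN was at 12376, 12152, 20707 and 10351% on day 7, against 15222, 18251, 11153 and 12319.7% on day 0, where the animals of both days overlap almost completely (-0.06 ± 0.31). CXCL2, a further neutrophil attractant, was lower in animals 25, 26 and 32 and higher in animal 34 (-0.90 ± 0.43), and GRO1 was higher in 3 of 4 animals (0.52 ± 0.33, adjusted p = 0.479). TNF was at 10.5, 9.77, 12.7 and 3.81% on day 7, against 8.20, 7.94, 6.36 and 8.61% on day 0, higher in 3 animals and lower in animal 34 (0.12 ± 0.38). IL16 stayed close to its level in every animal, at 6991, 7762, 7777 and 8282% on day 7, against 7606, 8091, 8789 and 8921% on day 0, and a change of -0.12 ± 0.23.

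Some members leaned upwards on day 7. CCL5, a T and NK cell chemokine, was at 221, 107, 94.8 and 151% on day 7, against 109, 55.3, 91.1 and 124% on day 0. It was higher in all 4 animals, clearly so in animals 25 and 26 and barely in animal 32 (0.58 ± 0.28, adjusted p = 0.4). IL2RA was at 497, 862, 2215 and 1475% on day 7, against 675, 563, 642 and 664% on day 0, lower in animal 25 and higher in the others (0.78 ± 0.38, adjusted p = 0.411). Beside these, the summed level of T and NK cell markers was higher on day 7 in each animal, 4479% to 13150% on day 7 against 2716% to 5436% on day 0, and that of B cell markers 1273% to 1886% against 751% to 1186%; their part in these values was not tested. TNFSF13B was at 9.46, 8.28, 132 and 15.9% on day 7, against 7.98, 4.42, 5.51 and 14.9% on day 0, higher in all 4 animals but with a change of 1.46 ± 0.73 that was 0.42 without animal 32. IL18 was at 68, 171, 1085 and 110.3% on day 7, against 81.7, 168, 187 and 70.2% on day 0, again with animal 32 far above the rest (0.74 ± 0.47; 0.14 without animal 32). The 1 eosinophil marker on the array of 9 listed, the receptor CCR3, which the annotation does not name as such and which is no member, was at 50.9% to 74.7% on day 7 against 114% to 371% on day 0.

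In liver no member passed the test between the days either. Of 38 members tested none did (lowest adjusted p = 0.149), beside 3.98% of the 10933 probes tested, 2.67% higher and 1.31% lower. The 435 probes behind that share became 0 without animal 58, 116 without animal 61 and 159 without animal 66. At an unadjusted p under 0.05 there were 6 members and 17.9% of all probes. Among them were IL2RG, TNFRSF1B, CXCL3 and TNFSF13, higher on day 7, and CCL14, lower. The median log2 change was -0.08 over the members and -0.04 over all probes. All 38 members were above background on every day 0 array but not all on every day 7 array. Such a filter can favour lower values, and 1 shared direction, on day 7. Over the 28 members above background on every liver array the median was -0.003, beside -0.017 over the 9252 probes that met the same condition. The spread between the 3 animals was narrower than in neutrophils, with a median SD of 0.271 over members and 0.207 over all probes, and 19 of 38 members (50%) moved the same way in all 3 animals, beside 40.5% of all probes.

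A trend along the array ran through the liver changes. The array has 192 rows of spots. Among all probes tested, the liver change had a median of 0.54 on the log2 scale over the top 16 of them, -0.04 over rows 41 to 152 and -0.38 over the bottom 16, and the neutrophil change had -0.05, -0.06 and -0.09 over the same bands. IL2RG lies in row 3, where the median of the probes within 2 rows was 1.18, and CCL14 in row 192, where it was -1.08. IL2RG was at 6.06, 6.95 and 7.42% on day 7, against 2.98, 5.78 and 4.70% on day 0, above its day 0 range in every animal, with a log2 change of 0.65 ± 0.17, and of -0.29 once a trend along the rows was removed. CCL14 was at 11.5, 1.62 and 1.31% on day 7, against 27.4, 7.83 and 1.71% on day 0, lower in each animal over a wide range of levels (-1.30 ± 0.37, and -0.76 with the trend removed). CCL14 entered the test through the day 0 arrays alone, which favours a lower level on day 7. Its day 7 spot in animal 66 was not above background. TNFSF8, in row 3 too, was not tested in liver because 1 day 7 array and all day 0 arrays were not above background; its levels were 2.33, 3.14 and 2.99% on day 7, against 0.193, 0.210 and 0.202% on day 0. Other cell types moved with the day in liver: all 9 skeletal muscle markers on the array were higher on day 7, as summed above, and the 9 neutrophil markers summed to 296.5% to 350.1% on day 7, against 431% to 1090.0% on day 0. Their part in the members' changes was not tested.

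**Figure D5:**
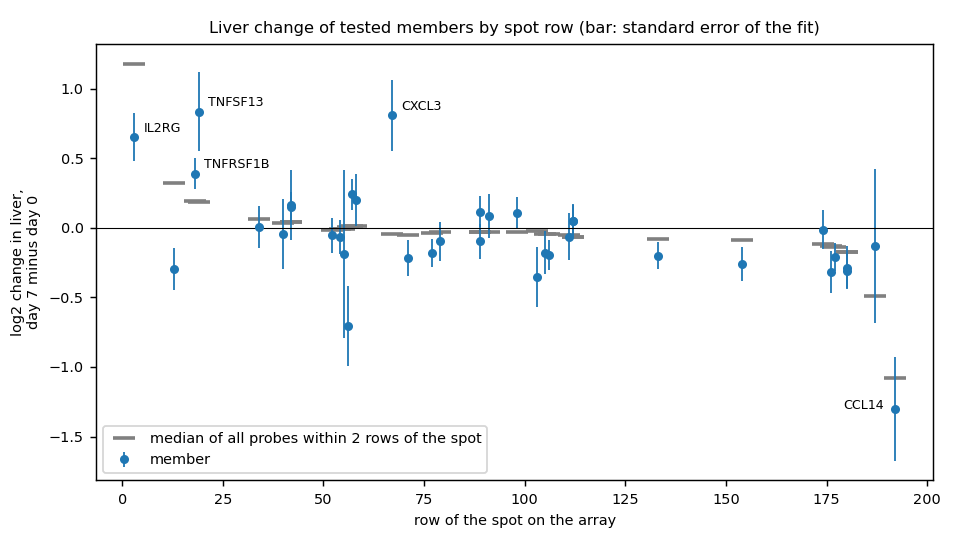
Log2 change in liver (day 7 minus day 0) of 37 of the 38 members tested, with the standard error of the fit (3 animals), against the row of the probe's spot; grey bars give the median change of all probes within 2 rows of each member. The grey bars run from 1.18 at row 3 to -1.08 at row 192, and 5 members with an unadjusted p under 0.05 are named.

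CXCL3, in row 67 and so away from the edges, was at 1980.0, 459 and 742% on day 7, against 689, 327 and 557% on day 0. It was higher on day 7 in each animal, most in animal 58, and the ranges overlap (log2 change 0.81 ± 0.25, adjusted p = 0.207; 0.86 with the row trend removed). TNFSF13, the plasma cell survival factor APRIL, was at 6.64, 5.10 and 5.56% on day 7, against 2.26, 4.61 and 3.19% on day 0, with all day 7 values above all day 0 values (0.83 ± 0.28, adjusted p = 0.235). CXCL5 had a change of -0.71 ± 0.29 (adjusted p = 0.306). In animal 58 its day 7 spot was not above background, and the change was -0.30 without that animal and -0.16 under normexp with quantile normalization. CCL25, a chemokine of gut and thymus, lies in row 180, nearer the bottom edge, where the local median was -0.177. It had a change of -0.31 ± 0.13 (adjusted p = 0.313), and of -0.067 with the row trend removed. The TNFSF13 spot lies in row 19, where the local median was 0.185, and TNFRSF1B, in row 18 with a local median of 0.192, changed by 0.39 ± 0.11. With the row trend removed, the changes of TNFSF13 and TNFRSF1B were 0.60 and 0.12 (limma, adjusted p = 0.499 and 0.723). Changes near 0 on the log2 scale were measured for IL1B, at -0.10 ± 0.12, IL1RN, at 0.09 ± 0.16, CXCL8, at 0.20 ± 0.18, CCL2, at 0.01 ± 0.15, CCL5, at -0.05 ± 0.12 and IL18, at 0.10 ± 0.11. CCL19 and CCL21, both CCR7 ligands, had wide spreads: CCL19 was at 24.4, 23 and 32.7% on day 7, against 21.6, 74.9 and 14.9% on day 0, and in both genes animal 61 was lower and animal 66 higher on day 7 (changes -0.13 ± 0.56 and -0.19 ± 0.60).

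Whether the change between days differed between the tissues was tested for the 30 members measured in both. None passed (lowest adjusted p = 0.216), beside 1.14% of the 8841 probes tested, 0.419% higher and 0.724% lower. At an unadjusted p under 0.05 there were 13.5% of all probes and 1 member, CCL3. CCL3 changed by -1.0 ± 0.29 in neutrophils and by 0.05 ± 0.12 in liver, where its levels were 379, 347 and 348% on day 7, against 419.5, 288 and 341% on day 0; the difference of the changes was -1.05 ± 0.35 (adjusted p = 0.216). TNFRSF1B and IL2RG had differences of -1.99 ± 0.94 and -1.32 ± 0.63, and IL2RG lies in row 3, where the median over all probes near it was -1.31. On the other side GRO1, CCL5, TNFSF13B and IL11RA had differences of 0.88 ± 0.44, 0.63 ± 0.33, 1.75 ± 0.99 and 0.49 ± 0.28 (adjusted p = 0.443 to 0.51). CCL24 had -0.43 ± 0.25, with a lower level on day 7 in all 4 neutrophil animals. In neutrophils it entered through the day 0 arrays alone, which favours a lower level on day 7. Its day 7 spots in animals 26 and 32 were not above background.

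Genes that carry the signals of these receptors were set beside them as lists, to be read against the 83.1% of all probes that were called between tissues, 43.5% higher and 39.7% lower. Against liver on day 0, neutrophils were higher in 13 of 14 genes tested of TNF and NF-kappaB signalling, among them the inhibitor of apoptosis BIRC3 (5.18 ± 0.17), TNIP1 (4.22 ± 0.16) and the caspase CASP8 (2.26 ± 0.14), and TRADD did not pass. All 7 adaptors of IL1 and Toll-like receptors tested were higher, among them MYD88 (6.87 ± 0.24) and CASP1, which cleaves IL1B (6.05 ± 0.22). So were all 8 signalling partners of chemokine receptors tested, such as the GTPase RAC2 (5.58 ± 0.17) and the arrestin ARRB2 (4.46 ± 0.15). Of 9 JAK and STAT genes 8 were higher, PIM1 by 5.63 ± 0.20, and SOCS2 was lower. Of 5 TGF-beta genes 3 were higher, the receptor TGFBR1 among them, which was above background on no day 0 liver array and so had to be, and ENG was lower. BIRC3, CISH and ENG lie in spot rows 7, 4 and 3, where the median differences of all probes within 2 rows were 1.26, 1.61 and 1.98. CISH, among the 8 JAK and STAT genes called higher, differed by 1.33 ± 0.33 itself. Above background on every array of both tissues were all 14 TNF and NF-kappaB genes and all 8 partners of chemokine receptors, 6 of 7 adaptors, 8 of 9 JAK and STAT genes and 4 of 5 TGF-beta genes. The list medians were 2.12 for TNF and NF-kappaB, 2.91 for the adaptors, 3.27 for the chemokine receptor partners, 3.33 for JAK and STAT and 2.10 for TGF-beta, beside 0.12 over all probes. Over the 8744 probes above background on every array of both tissues, the median was 0.501 and 49.8% were called higher. A list of relatives of the members, 2 of them members themselves (FAS and CD40), was higher in 11 and lower in 4 of 17, with IFNGR1, the interferon gamma receptor, at 4.48 ± 0.17 and IFNAR2, a chain of the type I interferon receptor, at 4.31 ± 0.15; 13 of these 17 were above background on every array of both tissues.

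Between the days, no gene of these 6 lists passed in neutrophils. Of the TNF and NF-kappaB genes 12 of 14, and of the partners of chemokine receptors all 8, had a negative change, with list medians of -0.264 and -0.765 beside -0.07 over all probes. The medians of the other lists in neutrophils lay between -0.217 and -0.124. Without animal 34, a choice made after seeing the data, the medians were -0.12 for TNF and NF-kappaB, -0.237 for the partners of chemokine receptors and 0.13 for JAK and STAT, beside -0.04 over all probes, and 10 of 14, 8 of 8 and 3 of 9 genes were negative. Those of the other lists lay between -0.148 and -0.0742. In the fit of all 4 animals, animal 34 included, examples are TOLLIP, which damps IL1 signalling (-0.74 ± 0.30), the receptor kinase GRK3 (-1.70 ± 0.73) and TGFBR1 (-0.94 ± 0.31). In liver 3 of the 56 genes tested passed, 5.36% beside 3.98% of all probes: the feedback inhibitor CISH was higher by 1.54 ± 0.20 and the TGF-beta coreceptor ENG by 0.88 ± 0.12, in spot rows 4 and 3, and the adaptor TRADD, in row 187, had a change of -0.73 ± 0.10. The local medians there were 1.01 for CISH, 1.18 for ENG and -0.487 for TRADD. With the row trend removed, also chosen after seeing the data, the changes were 0.65, -0.06 and -0.34, and none of the 3 passed (adjusted p = 0.341, 0.867 and 0.381). The other 3 lists held none, and the liver list medians lay between -0.096 and 0.0481. The tests of the difference between tissues called no gene of the 6 lists.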

How the data were processed

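RNA of 14 samples (neutrophils of 4 animals and liver of 3 others, each on days 7 and 0) was labelled with Cy3 and hybridised to single-colour Agilent bovine arrays. Per the file headers, the intensity values are processed signals of Agilent Feature Extraction 9.5.1.1 (9.5 per the submitters' processing notes), already background-subtracted, with flags for spots above background, saturated or outlying. The authors also deposited a table of log2 values, which correlated at 1 with the processed signals, lay within 0.013 of the scaled values used here (column medians -3.548 to -2.694, so likewise centred on about the 75th percentile and not by gene) and served as an alternative.

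From the intensities, log2 signal minus the array's 75th percentile was computed, control and outlier spots were left out, and a probe entered a test if all arrays of 1 or more of the groups compared showed it well above background. Differences were fitted with limma 3.58.1 under R 4.3.3, by lmFit followed by eBayes, where comparisons of days also had a term per animal, and p-values adjusted by Benjamini-Hochberg over all probes tested, at a threshold of 0.05. The block rests on the labels, which give the same animals on both days. Deviations of an animal's 2 arrays from their group means correlated at 0.36 to 0.68 in liver and -0.021 to 0.63 in neutrophils. The number of arrays, not a read depth, limits the precision, and 29 to 46 members were above background per array.

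Of 75 probes whose text matched the family names, 6 named only an interaction partner and 1 was left out, and values of 1 member are not reported here although it is in the counts. Symbols were updated through RefSeq by accession for 49 member probes and by gene number for 9, 9 kept the file's symbol and 1 only its file name. A further 11 genes bear family symbols only by later naming and were left out. Members and lists were chosen with earlier results of these data known. Genes were named by a rule: up to 12 per direction by size of change among those past the threshold, otherwise the 4 per direction with the smallest p, plus a set of core members, and up to 3 per pathway list by smallest p. Other members, such as those whose call was lost without an animal, were named after their values were seen.

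The fits were tested on simulated data, where changes of 2 on the log2 scale were recovered in 79.4% of cases for liver between days (10933 probes), 69.1% for neutrophils (9449), 53.1% for the difference (8841) and 81.3% between tissues (11494). Alternatives covered the animal block, background correction and normalization, the deposited log2 table, the filter on dim probes, the position on the array, outlier spots, the day of sampling and each animal left out.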

Additional observations from a re-analysis of the deposited data

Results flagged for a closer look

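Some single arrays stood apart within their group of 4. In neutrophils on day 7, FAS was highest in animal 32, at 8252% of the array's 75th percentile, with the nearest animal at 3092%, a gap of 0.898 of the whole range on the log2 scale. TNFRSF1B was lowest in animal 34 on day 7, at 15.8% with the nearest at 267% (gap 0.83), and so was CCR7, at 3.29% with the nearest at 20.9% (gap 0.851). That CCR7 spot was not above background, so its value and gap are those of a dim spot. CXCR3 was lowest in animal 25 on day 7, at 0.419% with the nearest at 2.76% (gap 0.835), and this spot too was not above background. On day 0, TNFRSF19L was lowest in animal 32, at 21.5% with the nearest at 33.95% (gap 0.863). By Dixon's gap test 5 of the 80 groups of 4 passed the critical value, and chance flags about 5% of groups.

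For 3 members every animal of one tissue moved one way and every animal of the other the opposite way between the days. TNFSF13B had a mean log2 change of 1.46 in neutrophils and -0.30 in liver, a difference of 1.755 (limma, adjusted p = 0.5). Its day 7 liver spot in animal 58 was not above background. TNFRSF1B changed by -1.60 in neutrophils and by 0.39 in liver, a difference of -1.993 (adjusted p = 0.407). IL11RA changed by 0.20 in neutrophils and by -0.29 in liver, a difference of 0.4872 (adjusted p = 0.51). None of these differences passed the test. The share of all probes with such opposite changes was not counted, so the 3 cannot be set against the array at large. With the row trend removed, the liver changes of TNFRSF1B and TNFSF13B were 0.12 and -0.74.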

How the results depend on the processing

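Every alternative kept the number of members called between days at 0 in liver and at 0 in neutrophils, the fit with no replicate block included, which changed no member's call for the difference between tissues either. For the difference between tissues the count was 1 (TNFSF8) with no filter on dim probes and 0 to 1 when an animal was left out (TNFSF8 without animal 58, CD40 without animal 34). Between tissues, 45 members became 28 where every array had to be above background and 27 where the first and last 40 rows were left out, both of which test fewer members, and 40 to 43 when an animal was left out. With no filter on dim probes it was 56, with 13 members newly called.

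Each named member was counted once per alternative, so 1 member can count several times. In liver 15 such values turned sign and 258 did not, and in neutrophils 11 did and 303 did not. Between tissues none turned sign. Under normexp with quantile normalization the liver changes of CXCL8, CCL2 and CCL3 were -0.034, -0.0075 and -0.010, and the neutrophil change of CCR7 was 0.062. Quantile normalization alone gave -0.012 for liver CCL3. With the row trend removed, liver IL2RG was -0.29 and CCL2 -0.036. Leaving out single animals moved the liver changes between -0.098 and 0.19 for CCL2, -0.14 and 0.066 for CCL5, -0.17 and 0.42 for IL4R, -0.10 and 0.22 for IL1RN, -0.060 and 0.15 for CCL3, -0.048 and 0.12 for IL10, -0.19 and 0.020 for IL1B, and -0.22 and 0.055 for TGFB1. In neutrophils it moved them between -0.38 and 0.11 for IL1RN, -0.28 and 0.12 for CXCR1, -0.23 and 0.24 for IL1A, -0.17 and 0.55 for TNF, -0.48 and 0.72 for CCR7, and -0.31 and 0.061 for LTA. The cause was not tested.

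Over all probes, the 435 liver calls became 210 with no replicate block, 71 with the row trend removed, and 0 with no filter or with the edge rows left out. The 101 calls of the difference became 66 with no filter, 13 with the row trend removed, 0 with the edge rows left out and 15 to 267 when an animal was left out. The 9554 calls between tissues became 5601 with the edge rows left out.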
